A study of Mus musculus with 17 samples.

Results

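Albumin is the main protein that hepatocytes secrete into blood, and its gene Alb is switched on as liver precursors take the hepatocyte path. Cultured mouse liver progenitors and their hepatocyte-condition derivatives varied widely in Alb and were divided here by its level. The 8 arrays concerned, of 17 in the series, were the 4 of undifferentiated adult hepatic progenitor cells (labelled Undiff) and the 4 of cells differentiated toward hepatocytes in vitro (Diff_Hepatocyte). Arrays were chosen by their own Alb signal: an array was albumin-high where its log2 Alb signal lay above the 75th percentile of that array's probes, and albumin-low where it lay below. This put 2 undifferentiated and 2 hepatocyte-condition arrays in each class, so each class held 4 arrays. All material came from mice labelled Foxl1-CRE; RosaYFP, the offspring, 6 to 10 weeks old, of Foxl1-Cre mice and Rosa26R reporter mice. In such mice the Foxl1 promoter drives Cre recombinase, and cells that have made Cre, with their descendants, carry the fluorescent reporter. The labels do not say whether numbered arrays of a group came from separate animals, clones or cultures, so the spread between arrays may be technical, and no medium, time or agent is named for either condition. The other arrays were 3 of cells differentiated toward cholangiocytes (labelled Diff_Cholanglocyte), 4 of primary hepatocytes and 2 of primary cholangiocytes, all with the same strain label. RNA was amplified, labelled with Cy3 and hybridised to 1-colour Agilent arrays.

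Adult hepatic progenitors are cells of the bile duct compartment that can give rise to hepatocytes or to cholangiocytes, the cells that line bile ducts. Hepatocyte identity rests on a network of transcription factors, among them HNF4, FOXA and C/EBP proteins, that act together on promoters and enhancers of genes for plasma proteins, urea synthesis, bile acid transport and drug metabolism. The comparison here describes which of those genes, and which others, differed between cultures that differed in Alb.

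Albumin itself was read by 1 probe of 60 bases, given here 5′ to 3′ as the array design lists it because its signal defined the classes. Alb lies at chr5:90460870-90476602 in RefSeq's GRCm38.p6 annotation.
Alb probe: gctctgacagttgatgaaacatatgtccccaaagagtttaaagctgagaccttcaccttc

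Levels are log2 of the array signal minus log2 of that array's 75th percentile, so 0 is that percentile and 1 unit is a factor of 2; levels are compared within a gene only. The dimmest signals well above background lay between -7.97 and -7.00 on the 8 arrays, so a difference from a lower level rests on the floor. Alb stood at 6.00, 1.26, -4.44 and -8.74 on undifferentiated arrays 1 to 4, and the last value was not well above background. On hepatocyte-condition arrays 1 to 4 it stood at 7.62, -4.76, 7.58 and -3.65. The array just inside the high class was therefore undifferentiated array 2 at 1.26, and the nearest outside it was hepatocyte-condition array 4 at -3.65. Both albumin-low hepatocyte-condition arrays lay below both albumin-high undifferentiated ones. These values chose the classes and are a description, and a cut at 0 does not show separate kinds of culture. The 4 primary hepatocyte arrays read 9.46 to 10.31, above every cultured array. The cholangiocyte-condition arrays read -4.10, -7.96 and -9.32, and the primary cholangiocyte arrays -4.94 and -9.65.

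Ttr, which encodes transthyretin, the plasma carrier of thyroid hormone and retinol-binding protein, followed the same division less sharply. It read 4.99 and 3.23 on the albumin-high undifferentiated arrays against 1.85 and -4.38 on the albumin-low ones. In the hepatocyte condition it read 6.45 and 6.13 against 4.32 and 1.97. The classes did not overlap for Ttr within either group, but the albumin-low hepatocyte-condition array 2, at 4.32, lay above the albumin-high undifferentiated array 2. Primary hepatocytes read 8.82 to 9.34. The labelled cell types matched their markers in part. Primary hepatocytes had Alb and Ttr high and Krt7 at -8.49 to -6.81, while all 8 cultured arrays, albumin-high included, kept the duct keratins Krt7 (3.27 to 5.17) and Krt19 (3.79 to 7.03). Foxl1, whose promoter marks the cells, was well above background on all 8 cultured arrays and on none of the 6 primary arrays.

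**Figure D1:**
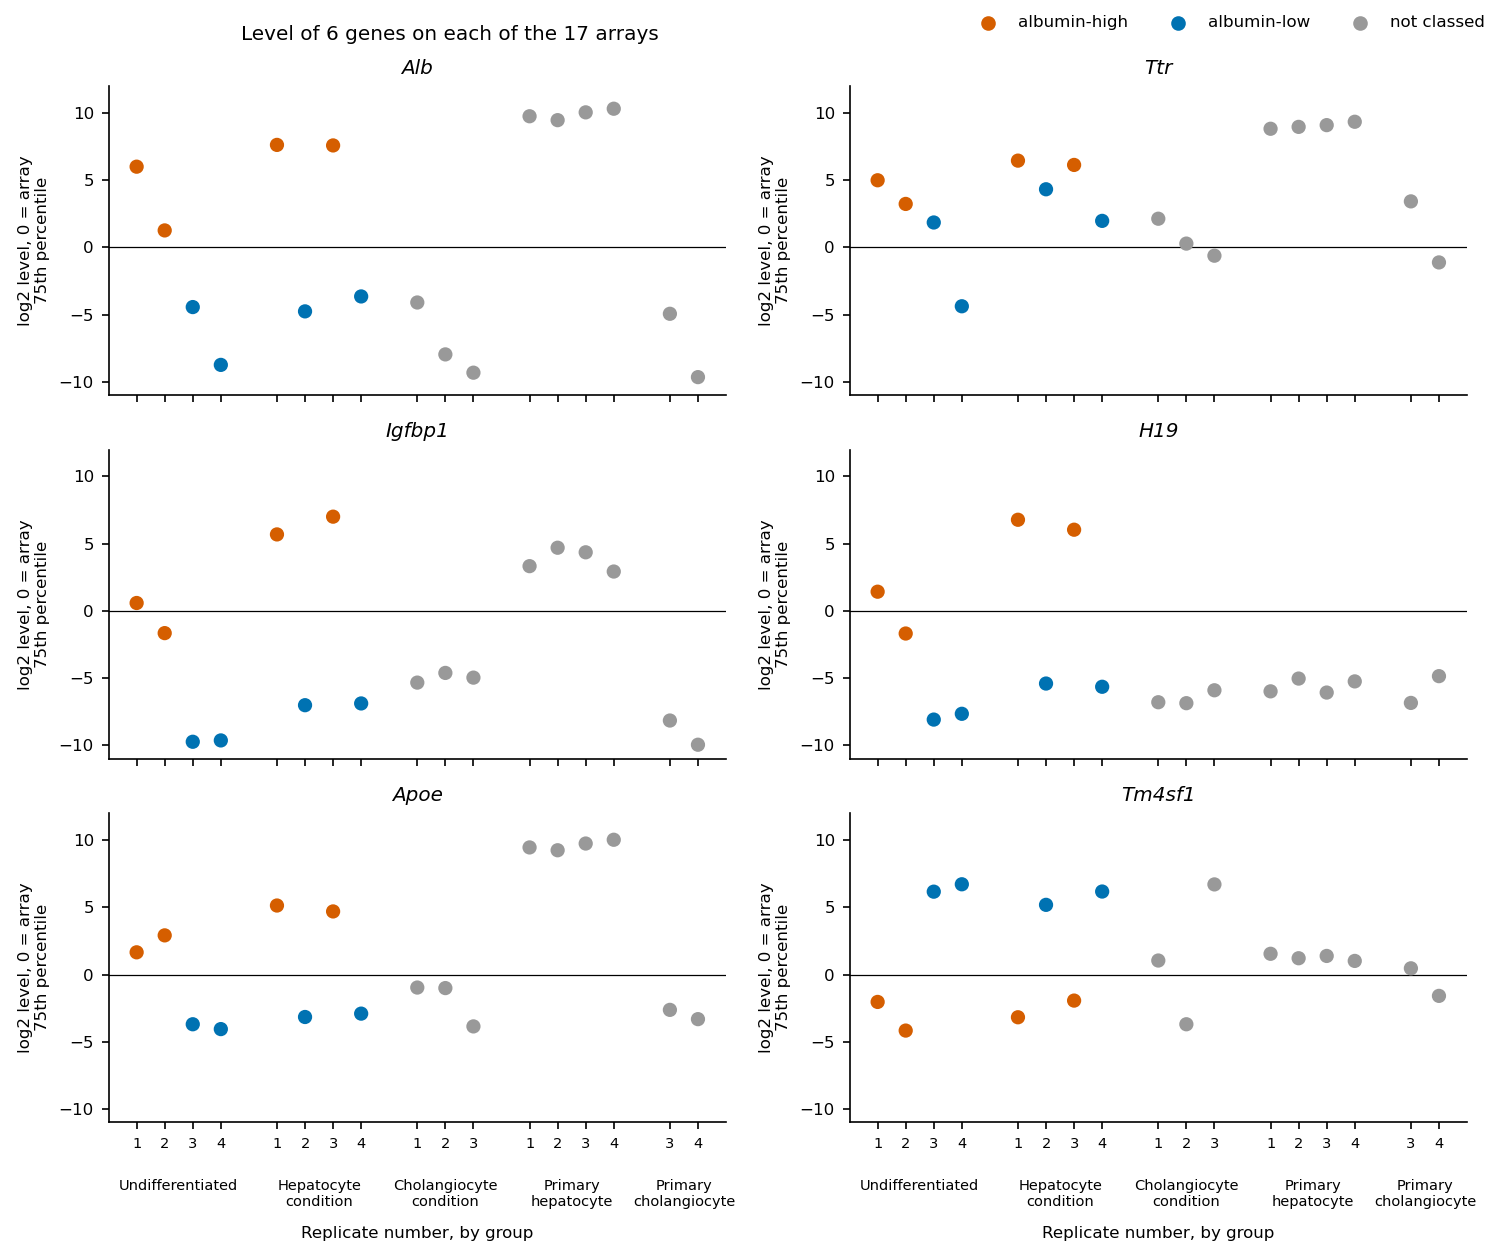
Level of 6 genes on each of the 17 arrays, as log2 signal with 0 at each array's 75th percentile (y axis), by group and replicate number (x axis); each point is 1 array, orange for albumin-high, blue for albumin-low and grey for arrays that were not classed. Alb ran from 1.26 to 7.62 on the 4 albumin-high arrays and from -8.74 to -3.65 on the 4 albumin-low arrays, and Tm4sf1 had the opposite order.

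The difference between the classes was fitted for 25976 genes other than Alb with the group as a block. A gene was counted as higher or lower when the fitted difference was at least 1 log2 unit and the 2 high and 2 low arrays did not overlap, in the same direction, within both groups. Because the classes were cut from Alb on these arrays, the differences of other genes there are a description and carry no p-value. The standard errors (SE) are those of the fitted difference, drawn from the spread between arrays around the fit. Counted genes have a small residual by their selection, which can lower their SE. By this rule 815 genes (3.14%) were higher and 268 (1.03%) lower in albumin-high arrays, while the median over all genes was 0.06. The split leaned on the scaling: 75.3% of counted genes were higher with the 75th percentile, 59.3% with quantile normalization and 57.5% with the array median, which moved the median of all genes to -0.14. Of the counted genes, 544 higher and 237 lower ones were well above background on all 4 arrays of the brighter class. The difference was at least 4-fold for 369 higher and 73 lower genes and at least 16-fold for 115 and 11. Leaving out 1 undifferentiated array left a lone array on one side of the overlap rule. The count of higher genes rose to 1330 without array 1, 1230 without array 2, 1744 without array 3 and 935 without array 4. Among genes that differed by at least 4-fold without overlap in each group, 236 were higher and 51 lower in both, against 3 that went in opposite directions. Genes with a large difference in 1 group only are outside this count. Plg, for example, differed by 0.13 in undifferentiated cells and 11.13 in the hepatocyte condition, and Fgb by 5.61 and 0.28. The groups cannot be taken as independent replicates of the class. The class differences correlated across genes at 0.45 between the groups. Differences between arrays of the same class correlated between the groups at 0.39 in the high and 0.46 in the low class. For these the order of subtraction followed array pairs found in the same data and described below, so their positive signs were chosen. At any size, 1572 genes were higher and 1577 lower without overlap in both groups, and 1003 went in opposite directions. The 75th percentile overlapped between the classes and ran from 1959 to 2541 intensity units on high arrays and from 1909 to 2476 on low arrays. The classes were also spread over the 5 slides, and slides 1, 3 and 5 each held 1 array of either class. An mRNA level in a culture cannot tell fewer cells that make a transcript from less of it per cell.

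**Figure D2:**
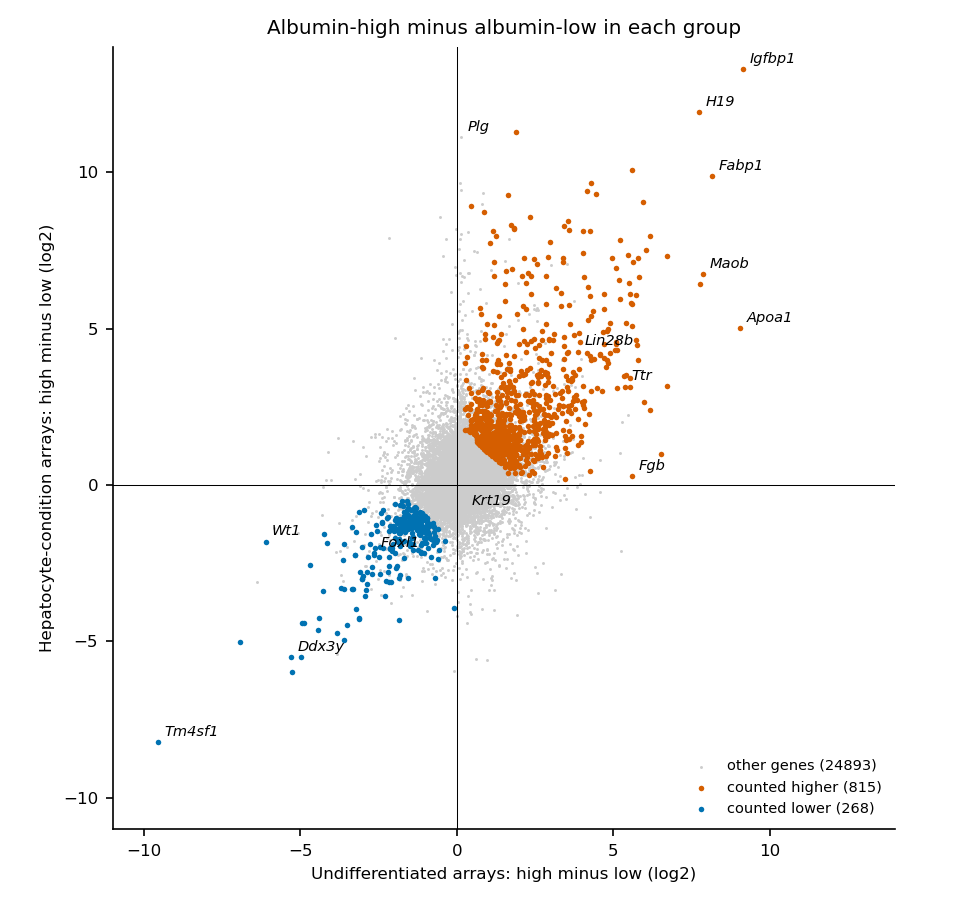
Albumin-high minus albumin-low difference (log2) of each of 25976 genes, within the undifferentiated arrays (x axis) and within the hepatocyte-condition arrays (y axis), each from 2 arrays against 2. The 815 genes counted higher (orange) and 268 counted lower (blue) lie in the corners that their rule defines; Igfbp1, H19 and Fabp1 stand farthest out on the higher side and Tm4sf1 on the lower side, and Plg lies near 0 on the x axis and high on the y axis.

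On this scale the gene with the largest fitted difference was Igfbp1 (chr11:7197787-7202546), which encodes an insulin-like growth factor binding protein that liver secretes. Igfbp1 read 0.59 and -1.65 on the albumin-high undifferentiated arrays and 5.69 and 7.01 on the albumin-high hepatocyte-condition arrays. On the albumin-low arrays it read -9.73 and -9.63, not well above background, and then -7.01 and -6.88. The classes were apart by 11.22 (SE 0.95), and the albumin-high hepatocyte-condition arrays stood above the 4 primary hepatocyte arrays, which read 2.93 to 4.70. With normexp background correction Igfbp1 differed by 7.32 and Tm4sf1 by -8.39, so the order of the largest genes depends on the treatment of dim signals. Fabp1 (chr6:71199879-71205034), the liver fatty acid binding protein, read 0.86 and -2.21 against -8.40 and -9.27 in undifferentiated cells and 3.64 and 2.70 against -5.68 and -7.75 in the hepatocyte condition, a difference of 9.02 (SE 0.83). Only 1 of the 4 low arrays had Fabp1 well above background, and the difference was 5.30 with normexp background correction. Primary hepatocytes had Fabp1 at 9.09 to 9.68, above every culture.

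H19 (chr7:142575530-142578146) was second in size. It is an imprinted noncoding RNA that is abundant in fetal liver and silenced after birth. H19 read 1.43 and -1.68 on the albumin-high undifferentiated arrays and 6.78 and 6.04 on the albumin-high hepatocyte-condition arrays. The albumin-low arrays read -8.08 and -7.65, then -5.40 and -5.64, with 2 of these 4 arrays well above background, so that the classes differed by 9.83 (SE 1.02). Primary hepatocytes, at -6.07 to -5.03, lay with the albumin-low arrays and not with the albumin-high ones.

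H19 was 1 of 4 higher genes in a list of 25 measured progenitor and fetal liver genes, in which 1 gene was lower and the median difference was 0.30. The other 3 were Lin28b, Igf2bp3 and Trim71. Lin28b encodes an RNA-binding protein that blocks let-7 microRNA maturation, Trim71 a let-7 target that represses mRNAs, and Igf2bp3 an oncofetal mRNA-binding protein. Lin28b read -3.55 and -3.75 on the albumin-high undifferentiated arrays and -4.93 and -4.61 on the albumin-high hepatocyte-condition arrays. It was not well above background on any albumin-low array, which makes it at least 9.68-fold higher in the high class on this scale. With normexp background correction the fitted difference was 0.97, under the size the count asks for. Igf2bp3 read -0.48, -0.14, -0.66 and -1.48 on the high arrays, and -8.33, -2.45, -7.62 and -3.54 on the low arrays in the order undifferentiated 3 and 4, hepatocyte condition 2 and 4. Trim71 differed by 3.80 (SE 0.57). None of these 3 was well above background on any primary hepatocyte or primary cholangiocyte array. Other fetal genes of the list did not follow: Afp, the fetal counterpart of albumin, read 5.43 and -0.59 against 0.55 and -3.0 in undifferentiated cells and overlapped in both groups, and Igf2, the imprinted neighbour of H19 looked at after its values were seen, differed by 1.19 (SE 0.46) with overlap among undifferentiated arrays. The lower gene was Foxl1, at -1.55 and 1.05 against 2.23 and 2.55 in undifferentiated cells and 0.73 and -1.99 against 1.64 and 1.46 in the hepatocyte condition. Its difference was -2.41 (SE 0.74).

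The promoters of 3 higher genes and 1 of a lower gene are shown with Alb for context, each as the 250 bases before the RefSeq start site, 5′ to 3′ in the direction of the gene (GRCm38.p6). Capitals mark any match to 3 short motifs searched on both strands: AAGTCCA (an HNF4 core), TGANTCA (the AP-1 motif) and GGAATG (the TEAD motif).
Alb, chr5:90460620-90460869, plus strand: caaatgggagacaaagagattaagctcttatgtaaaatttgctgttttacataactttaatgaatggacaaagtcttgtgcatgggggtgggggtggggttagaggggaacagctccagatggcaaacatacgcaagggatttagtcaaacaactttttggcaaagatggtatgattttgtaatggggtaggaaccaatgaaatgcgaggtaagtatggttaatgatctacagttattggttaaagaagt
Igfbp1, chr11:7197537-7197786, plus strand: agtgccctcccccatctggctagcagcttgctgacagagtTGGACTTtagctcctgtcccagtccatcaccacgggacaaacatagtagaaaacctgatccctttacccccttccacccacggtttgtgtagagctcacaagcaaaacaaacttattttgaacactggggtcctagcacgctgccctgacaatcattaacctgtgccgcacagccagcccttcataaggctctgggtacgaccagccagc
Fabp1, chr6:71199629-71199878, plus strand: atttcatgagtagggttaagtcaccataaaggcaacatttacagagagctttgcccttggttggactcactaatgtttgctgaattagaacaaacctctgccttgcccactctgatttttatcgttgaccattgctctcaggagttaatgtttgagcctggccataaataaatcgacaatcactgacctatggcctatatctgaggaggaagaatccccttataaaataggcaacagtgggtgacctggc
Apoa1, chr9:46228380-46228629, plus strand: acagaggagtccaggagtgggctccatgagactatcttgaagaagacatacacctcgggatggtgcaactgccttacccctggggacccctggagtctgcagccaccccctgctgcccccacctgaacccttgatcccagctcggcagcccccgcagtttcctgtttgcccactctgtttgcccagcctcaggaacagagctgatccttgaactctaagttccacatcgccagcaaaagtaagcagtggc
Tm4sf1, chr3:57301989-57302238, minus strand: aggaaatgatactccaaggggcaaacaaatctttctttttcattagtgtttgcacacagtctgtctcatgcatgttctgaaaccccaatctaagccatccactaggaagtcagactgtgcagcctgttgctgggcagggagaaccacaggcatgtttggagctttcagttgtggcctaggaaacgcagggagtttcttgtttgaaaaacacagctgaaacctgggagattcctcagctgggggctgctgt

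The HNF4 core stood once, in the Igfbp1 window on the other strand at -210 to -204 from the start. The Alb, Fabp1, Apoa1 and Tm4sf1 windows held none of these letters. RefSeq promoter windows matched 504 of the 815 higher genes (636 windows), 158 of the 268 lower genes (190 windows) and 14825 of all genes (18407 windows). AAGTCCA was in 5.19% of the windows of higher genes, 3.16% of those of lower genes and 3.16% of all windows. TGANTCA was in 8.65%, 7.89% and 5.63%, and GGAATG in 14.6%, 14.7% and 11.5%. These shares are a count of letters and were not tested.

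Genes for secreted plasma proteins were higher in large part. Of 28 measured plasma carriers and apolipoproteins, 18 were higher and none lower, with a median difference of 3.03. Ahsg, which encodes fetuin-A, a plasma inhibitor of mineral deposition, differed by 7.84 (SE 1.48). Apoa1, the main protein of high-density lipoprotein, read 2.75 and 1.63 against -4.60 and -9.15 in undifferentiated cells and 5.12 and 5.50 against -1.18 and 1.77 in the hepatocyte condition. Its albumin-low hepatocyte-condition array 4 was thus above the albumin-high undifferentiated array 2. Apoe, a ligand for lipoprotein uptake, read 1.65, 2.91, 5.13 and 4.69 on the high arrays and -3.70, -4.06, -3.16 and -2.91 on the low arrays, a difference of 7.05 (SE 0.45). Neighbours were looked at after their values were seen. Apoc1, Apoc4 and Apoc2, which lie beside Apoe on chromosome 7, differed by 5.86, 6.12 and 5.87. Apoc3 and Apoa4, which lie beside Apoa1 on chromosome 9, differed by 6.97 and 4.32, while Apoa5 of the same cluster differed by 1.92 (SE 0.82) with overlap.

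Coagulation and fibrinolysis genes were higher in 15 of 22 cases and lower in none, with a median of 3.57. F2, which encodes prothrombin, read 0.05 and -2.54 against -6.51 and -8.06 in undifferentiated cells and 2.19 and 3.17 against -4.73 and -4.92 in the hepatocyte condition (difference 6.77, SE 0.68). Serpinf2, the plasmin inhibitor, differed by 6.52 (SE 0.64). F12, coagulation factor XII, was at least 38.1-fold higher on this scale, since no albumin-low array had it well above background. Fgb read 4.24 and 1.81 against -0.83 and -4.35 in undifferentiated cells, but 8.47 and 8.69 against 8.43 and 8.18 in the hepatocyte condition, and primary hepatocytes read 8.61 to 8.99. Plg, which encodes plasminogen, had the reverse pattern: it read -8.99, -9.85, -9.56 and -9.54 on the undifferentiated arrays and read 1.18 and 4.18 against -7.55 and -9.35 in the hepatocyte condition, and was not counted.

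Protease inhibitors were higher in 12 of 21 cases, with a median of 2.98. Serpina3k differed by 6.78 (SE 1.46), Itih3, which binds hyaluronan in the matrix, by 4.66 (SE 0.96) and Spink1, a trypsin inhibitor, by 4.01 (SE 0.87). The near-identical alpha-1-antitrypsin copies Serpina1a and Serpina1d, whose probes may share signal, followed another division. Serpina1a read -1.47, 3.51, 2.78 and -5.66 on undifferentiated arrays 1 to 4 and 7.15, 3.70, 5.19 and -2.87 on hepatocyte-condition arrays 1 to 4, so the albumin-high undifferentiated array 1 lay below an albumin-low one. Among 23 complement genes 4 were higher, led by Cfi (4.94, SE 1.14) and C2 (4.40, SE 0.77), and the median was 1.21. Among 21 acute phase genes 6 were higher, with a median of 0.46. Hamp, which encodes the iron hormone hepcidin, differed by 2.53 (SE 0.43).

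Metabolic genes of the hepatocyte were higher in part. Of 47 measured cytochrome P450 and conjugation enzymes 17 were higher, with a median of 1.01 within undifferentiated cells and 2.72 within the hepatocyte condition. Cyp2d26 read 0.80 and -1.49 against -5.39 and -6.37 in undifferentiated cells and 3.53 and 4.11 against -1.64 and -2.92 in the hepatocyte condition (difference 5.82, SE 0.57). Cyp2c39 was at least 21.6-fold higher on this scale. Cyp3a11, the main drug-metabolizing P450 of its family, lay between -6.09 and -5.14 on all 4 undifferentiated arrays and read 2.68 and -0.33 against -5.43 and -5.76 in the hepatocyte condition. It was not counted, since its undifferentiated arrays overlapped.

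Urea cycle and amino acid breakdown genes had 16 higher of 40, with a median of 0.84 in undifferentiated cells and 3.77 in the hepatocyte condition. Arg1, the arginase that releases urea, read -5.06 and -4.53 against -6.49 and -7.79 in undifferentiated cells and -0.55 and 2.83 against -7.23 and -7.61 in the hepatocyte condition. Ftcd, an enzyme of histidine breakdown, differed by 6.18 (SE 0.88). Hpd, of tyrosine breakdown, read 0.60 and 0.17 on the albumin-high hepatocyte-condition arrays and was not well above background on the other 6. Cps1, the first enzyme of the urea cycle, read 0.36 and 1.23 against -8.20 and -5.92 in the hepatocyte condition but overlapped in undifferentiated cells, at -6.38 and -5.24 against -5.86 and -9.11.

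Glucose and glycogen genes had 8 higher of 21 and a median of 1.35 (0.45 and 1.94). Pck1, which encodes the gluconeogenic enzyme phosphoenolpyruvate carboxykinase, read -7.55 and -6.87 against -8.13 and -9.54 in undifferentiated cells and 0.55 and 0.61 against -9.18 and -8.19 in the hepatocyte condition. It was well above background on 3 of the 4 high arrays, undifferentiated array 1 being the exception, and on no low array. Gckr, the regulator of glucokinase, differed by 5.25 (SE 1.39). G6pc, the last step of glucose release, read -4.72 and -4.47 against -4.88 and -6.08 in undifferentiated cells and 2.91 and 2.58 against -0.53 and -3.29 in the hepatocyte condition. Bile acid synthesis and transport genes had 8 higher of 28 and a median of 0.76 (0.72 in undifferentiated cells and 1.16 in the hepatocyte condition). They included Slc27a5, which activates bile acids for conjugation (5.03, SE 1.31), and Abcc2, a canalicular exporter (3.78, SE 0.75), while Abcb11, the bile salt export pump, was above background on the 2 albumin-high hepatocyte-condition arrays alone. Fatty acid oxidation and ketone synthesis genes had 7 higher of 29 and a median of 0.45 (0.42 and 0.43). Fabp1 was among them.

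Genes that mark the periportal zone of the liver lobule were higher in 8 of 17 cases, with a median of 2.77, and pericentral genes in 6 of 17, with a median of 1.01. Cyp2e1, a pericentral P450, read -5.06 and -4.87 against -5.08 and -6.41 in undifferentiated cells and 2.05 and -0.71 against -4.12 and -5.44 in the hepatocyte condition. The 7 measured major urinary protein genes, which are made by mature hepatocytes, had none higher or lower. Mup4 read between -9.11 and -4.50 on the 8 arrays and 8.46 to 9.20 in primary hepatocytes.

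Among 35 liver transcription factors 10 were higher and none lower, with a median of 0.19 (-0.02 when scaled to the array median). The largest was Nr1i2, the xenobiotic receptor PXR, at -4.16 and -2.09 against -8.94 and -8.86 in undifferentiated cells and -0.66 and -2.01 against -5.26 and -6.38 in the hepatocyte condition (5.13, SE 0.59). Nr5a2, a nuclear receptor of bile acid synthesis, differed by 2.95 (SE 0.68), Foxa3 by 2.56 (SE 0.41), Gata4 by 1.97 (SE 0.31) and Cebpa by 1.29 (SE 0.36). The central factors differed less. Hnf4a read 5.61 and 5.44 against 5.43 and 4.83 in undifferentiated cells and 5.72 and 5.96 against 4.74 and 4.46 in the hepatocyte condition, a difference of 0.82 (SE 0.24). Foxa2 differed by -0.26 (SE 0.22). Hnf4a was thus present in albumin-low cultures, at levels above the primary cholangiocyte arrays (3.93 and 1.42).

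**Figure D3:**
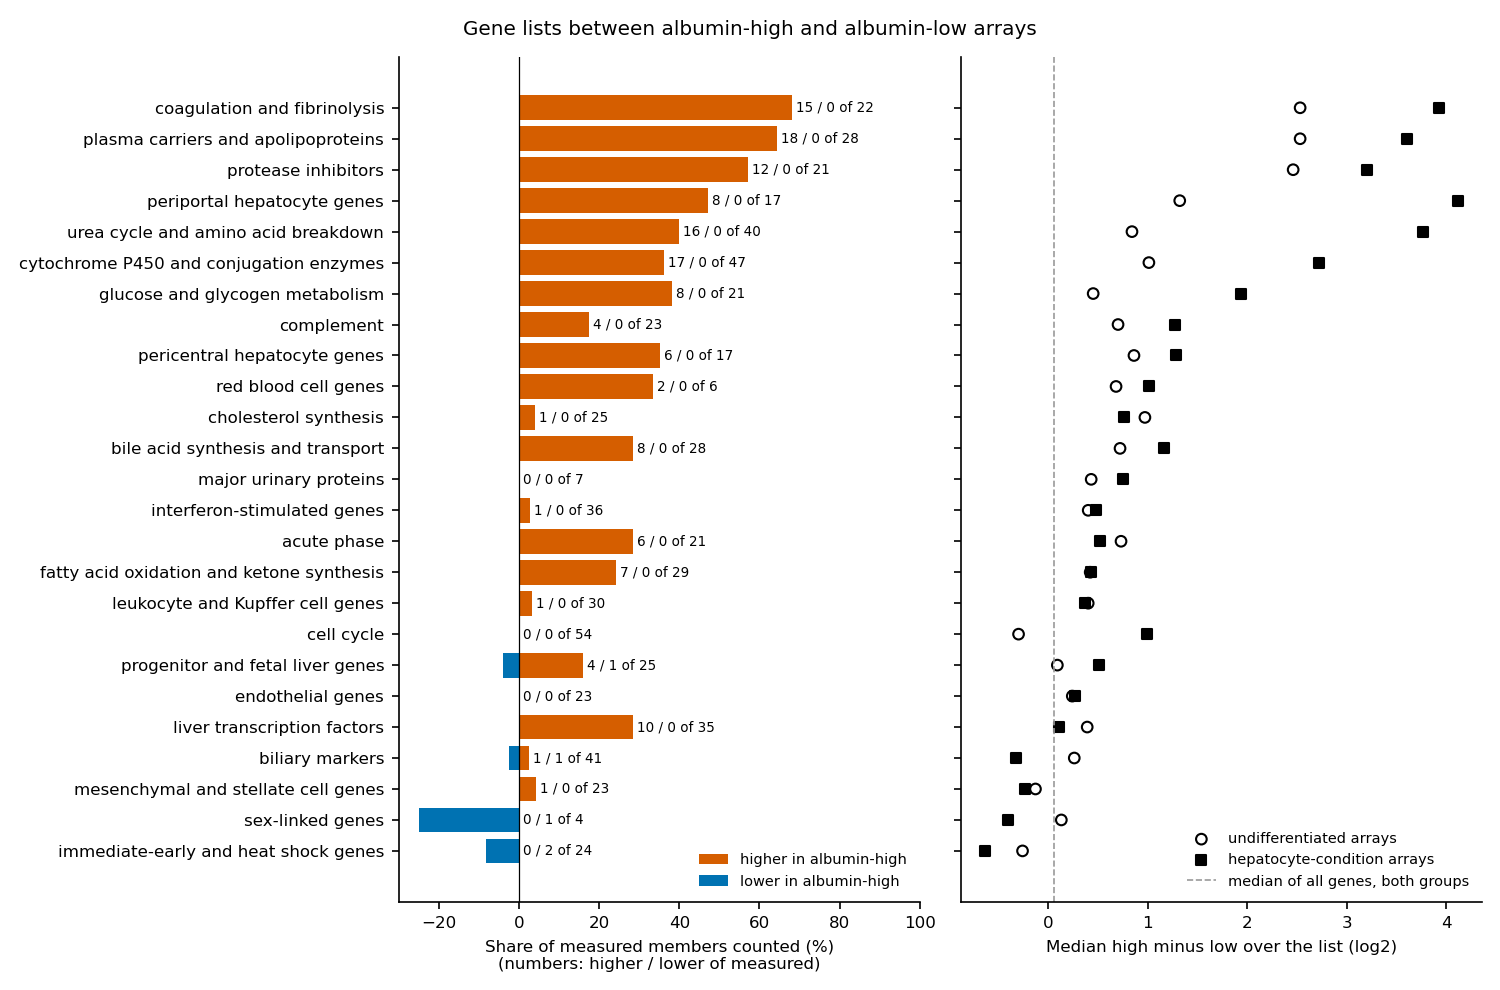
Gene lists between the albumin classes: share of measured members counted as higher (orange, to the right) or lower (blue, to the left) with the numbers beside each bar, and the median difference (log2) within undifferentiated arrays (circles) and hepatocyte-condition arrays (squares). Coagulation genes had the largest share, 15 of 22, and the periportal median was 1.32 in undifferentiated cells and 4.12 in the hepatocyte condition; the dashed line is the median of all genes, 0.06.

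Duct genes were counted about as often as other genes: of 41 biliary markers 1 was higher and 1 lower (2.44% each, against 3.14% and 1.03% of all genes), and the median was 0.09, which turned to -0.01 with quantile normalization and -0.11 with the array median. Krt19 differed by -0.29 (SE 0.39), Krt7 by -0.23 (SE 0.30) and Sox9, a transcription factor of duct cells, by 0.34 (SE 0.31), each with overlap among the undifferentiated arrays; Krt7 and Krt19 were lower without overlap in the hepatocyte condition. Epcam, a surface protein of duct cells, was -7.36 to -2.80 on the 8 arrays and 3.05 and 2.22 in primary cholangiocytes. The higher gene was Prom1 (CD133), a surface marker of duct and progenitor cells, at 2.12 and 3.15 against -1.71 and -4.07 in undifferentiated cells and 1.88 and 0.29 against -0.33 and -4.32 in the hepatocyte condition. Prom1 differed by 4.47 (SE 1.05), although it differed by -9.77 between primary hepatocytes and primary cholangiocytes (SE 1.09; adjusted p = 0.000194, limma). The lower gene, the membrane protease St14, differed by -1.0 (SE 0.25).

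No cell cycle gene of 54 was counted, and Mki67, a marker of dividing cells, differed by 0.30 (SE 0.36). The list median was -0.30 within undifferentiated cells and 0.99 within the hepatocyte condition. There the list's mean level was -0.63 and -1.04 on high arrays against -1.64 and -1.90 on low arrays, and Mki67 read 1.84 and 1.11 against 0.52 and 0.44. Of 36 interferon-stimulated genes 1 was higher, with a median of 0.51. Of 25 cholesterol synthesis genes 1 was higher, with a median of 0.82 (0.97 in undifferentiated cells and 0.76 in the hepatocyte condition). The fitted difference was above 0 for all 25 of these and for 28 of the 36 interferon-stimulated genes, against 14644 of all 25976 genes. Immediate-early and heat shock genes had 2 lower of 24, Ier3 and Dusp1, both by -1.01 (SE 0.27), with a median of -0.47. Markers of other liver cells were counted near the share of all genes (3.14% higher) except for red blood cell genes: 1 of 30 leukocyte and Kupffer cell genes (Cd79a, 3.33%), 1 of 23 mesenchymal genes (Rgs5, 4.35%), none of 23 endothelial genes, and 2 of 6 red blood cell genes (Slc4a1 and Hba-a1, 33.3%), all higher. The summed log2 level of the 30 leukocyte genes ran from 3.36 to 3.67 on high arrays and from 3.41 to 3.89 on low arrays. The sum ran from 2.70 to 4.29 and 2.43 to 4.15 for endothelial genes, from 7.70 to 8.63 and 8.02 to 8.42 for mesenchymal genes, and from -4.76 to -3.34 and -5.54 to -4.42 for red blood cell genes. Of the defining endothelial markers, Pecam1 and Kdr were well above background on all 8 arrays, Stab2 on 3, and Cdh5 and Lyve1 on none. Of the leukocyte and Kupffer cell markers, Ptprc, Adgre1, Csf1r and Cd74 were so on all 8, Cd68 on 6 and Clec4f on 1. The 5 measured defining markers of mesenchymal cells summed to 0.35 on the albumin-low hepatocyte-condition array 2 and -2.64 on array 4, against -3.92 to -3.27 on high arrays and -3.50 and -3.72 on the other low arrays. Acta2, smooth muscle actin, read 0 and -3.26 on those 2 arrays against -4.29 and -4.42 on the high arrays of that condition. The part of other cells in the albumin classes was not tested.

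Fewer genes were lower in albumin-high arrays, and 1 stood far from the rest. Tm4sf1 (chr3:57285611-57387736), which encodes a membrane protein of the transmembrane 4 L6 family, read -2.04 and -4.17 against 6.16 and 6.71 in undifferentiated cells and -3.18 and -1.94 against 5.18 and 6.17 in the hepatocyte condition. The classes differed by -8.89 (SE 0.59), and the difference between conditions was small (-0.11, SE 0.59). Primary hepatocytes, at 1.01 to 1.54, and primary cholangiocytes, at 0.46 and -1.59, lay between the classes. Mab21l3 differed by -5.97 (SE 0.73), Rab19, a small GTPase, by -4.53 (SE 0.40), each above background on 2 of the 4 high arrays, and Atp6v0e2, a proton pump subunit, by -4.68 (SE 0.90). Wt1, a transcription factor of mesothelium and kidney, read -6.21 and -5.83 against 1.17 and -0.99 in undifferentiated cells, and -1.01 and -0.36 against 1.42 and 0.83 in the hepatocyte condition. Fkbp10, a collagen chaperone, differed by -3.83 (SE 1.07).

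Other large negative differences rested wholly or in part on 1 array of each group. Ddx3y, a Y-linked RNA helicase gene, read 0.43, -9.62, 0.65 and 0.75 on undifferentiated arrays 1 to 4 and -8.99, 1.08, 0.43 and 1.35 on hepatocyte-condition arrays 1 to 4. It was not well above background on undifferentiated array 2, hepatocyte-condition array 1 and cholangiocyte-condition array 2 (-9.30). Uty, another Y-linked gene, read -4.01 to -2.85 on all 8. Y-linked Kdm5d was not well above background on other arrays, undifferentiated array 3 (-9.78) and hepatocyte-condition array 2 (-9.68). Evc2 and Evc, neighbours at chr5:37338478-37425055 and chr5:37288970-37336947 that act in the primary cilium, were dim on the same 3 arrays, Evc2 at -7.42, -8.86 and -8.94 against 1.27 to 2.55 on the other cultured arrays. Without undifferentiated array 2 and hepatocyte-condition array 1 the difference was -0.53 for Ddx3y, -0.74 for Evc2 and -1.43 for Cyba, a subunit of NADPH oxidase, in place of -5.40, -5.61 and -4.65. It was -8.04 for Tm4sf1, 12.11 for Igfbp1 and 10.42 for H19.

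Arrays of different groups thus resembled each other in pairs. The deviation of each array from its group mean, over 25976 genes, correlated at 0.38 between undifferentiated array 1 and hepatocyte-condition array 3, at 0.44 between undifferentiated 2 and hepatocyte-condition 1, at 0.35 between undifferentiated 3 and hepatocyte-condition 2, and at 0.52 between array 4 of each. Every other pair across these groups lay between -0.36 and -0.01. All 4 pairs were within an albumin class. The cholangiocyte-condition arrays 1, 2 and 3, which the rule did not use, correlated best with undifferentiated array 1 (0.38), undifferentiated array 2 (0.28) and hepatocyte-condition array 2 (0.33, with 0.32 for undifferentiated array 3). Genes that stood at least 4 log2 units from all other arrays of the group on 1 array of each group numbered 39 in the 4 pairs (3 to 18 each) and 6 in the 12 other pairs (0 or 1 each). They included Igf2bp3, low on undifferentiated array 3 and hepatocyte-condition array 2, and Tbx3, a liver transcription factor, high on those arrays (-0.82 and -0.23, against -5.50 or less on the other arrays of both groups). Named after their values were seen, Hoxa7, Hoxc6 and Serpina1a were lowest on array 4 of both groups. The pairs were found in the data, the labels link no array of one group to an array of another, and genes are not independent, so these correlations are a description.

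**Figure D4:**
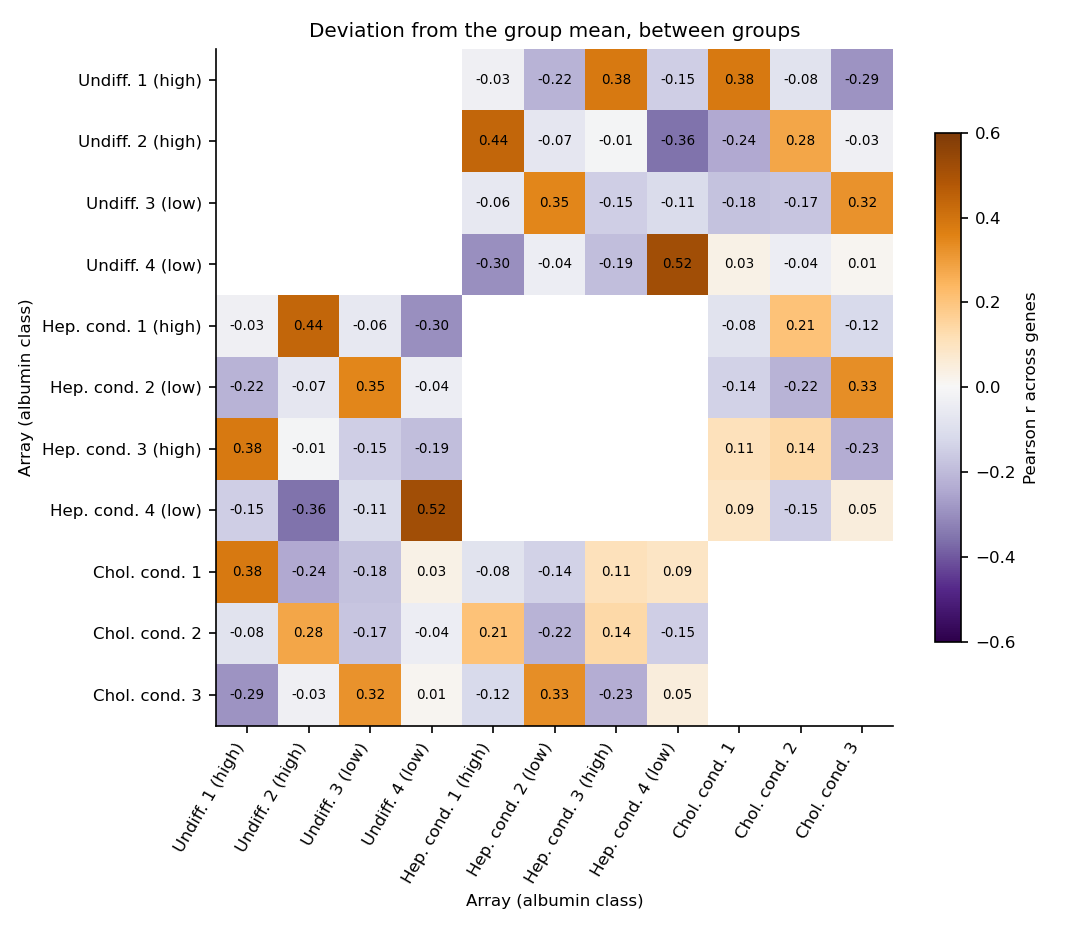
Pearson correlation across 25976 genes of the deviation from the group mean, for each pair of arrays from different groups among the undifferentiated, hepatocyte-condition and cholangiocyte-condition arrays (both axes; the albumin class is in parentheses). Each undifferentiated array had 1 hepatocyte-condition array at 0.35 to 0.52, always of its own albumin class.

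Placed on the genes of the classes, the cholangiocyte-condition arrays divided as well, although all 3 were low in Alb. Of the 544 higher genes above background, arrays 1 and 2 lay nearer the high than the low mean for 47.6% and 48.3%, and array 3 for 18.9%. Over all genes the shares were 54.2%, 57.4% and 47.8%. Of the 237 lower genes the shares were 72.2%, 72.2% and 23.2%. Tm4sf1 read 1.04, -3.70 and 6.70 on these 3 arrays, the last within the range of the albumin-low arrays. Maob, a mitochondrial amine oxidase, read -1.09, -1.88 and -9.12 against -1.01 to 0.51 on high arrays and -9.18 to -5.53 on low arrays. Acp5, an acid phosphatase, read -0.04, -2.30 and -6.83 against -0.21 to 1.30 and -7.43 to -5.78. Lin28b read -3.90, -3.68 and -7.03. Igfbp1, by contrast, was low on all 3 (-5.33, -4.61 and -4.96), as was H19 (-6.86 to -5.90).

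Freshly isolated cells gave a readout that the classes did not use. On the 9 arrays outside the rule, 6869 genes were higher in primary hepatocytes than in primary cholangiocytes (26.4%) and 5038 were lower (19.4%; limma, Benjamini-Hochberg adjusted p under 0.05, 4 arrays against 2). Of the 815 higher genes of the albumin classes, 448 (55%) were among the former and 71 (8.71%) among the latter. Of the 268 lower genes, 23 (8.58%) were higher in primary hepatocytes and 131 (48.9%) lower. The shared genes were 6.52% of all that were higher in primary hepatocytes and 2.60% of all that were lower. The median primary difference was 2.47 for higher and -1.98 for lower genes, against 0.35 for all genes. The 75th percentile that sets 0 was 547 to 986 intensity units on primary hepatocyte arrays and 2867 and 2696 on primary cholangiocyte arrays. Differences between the primary cells therefore depend on this scaling. Vtn, which encodes the plasma adhesion protein vitronectin, differed by 7.49 between the classes. Neither primary cholangiocyte array had it well above background. On this scale Vtn was at least 60500-fold higher in primary hepatocytes (adjusted p = 4.33e-09, limma). Apoe rose by 12.59 in primary hepatocytes (adjusted p = 6.98e-06) and F2 by 14.41 (adjusted p = 1.49e-05), F2 being above background on 1 of the 2 primary cholangiocyte arrays. Cyfip2, an actin regulator, had a class difference of -4.28. On this scale it was at least 183-fold lower in primary hepatocytes, none of which had it well above background (adjusted p = 0.000236, limma).

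Most of these genes were below primary hepatocyte levels in albumin-high cultures. Over the 448 shared genes the median level of albumin-high hepatocyte-condition arrays lay -3.36 log2 units from that of primary hepatocytes, and of albumin-high undifferentiated arrays -5.11. Both albumin-high hepatocyte-condition arrays reached the lowest primary hepatocyte array for 41 of the 448 genes. The 75th percentile was 1959 to 2541 intensity units on albumin-high arrays and 547 to 986 on primary hepatocyte arrays. Levels of cultures set beside primary cells, here and above, therefore depend on this scaling. Of the 544 higher genes well above background on the 4 albumin-high arrays, 99 (18.2%) stood above all 4 primary hepatocyte arrays on each of them. Among all 19383 genes above background there the number was 6014 (31%). Igf2bp3, Prom1 and H19 were among them. So was Hkdc1, a hexokinase gene noted after its values were seen, at 3.91, 2.90, 2.75 and 2.74 on high arrays, -3.44 to -0.96 on low arrays and -8.43 to -7.54 in primary hepatocytes.

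**Figure D5:**
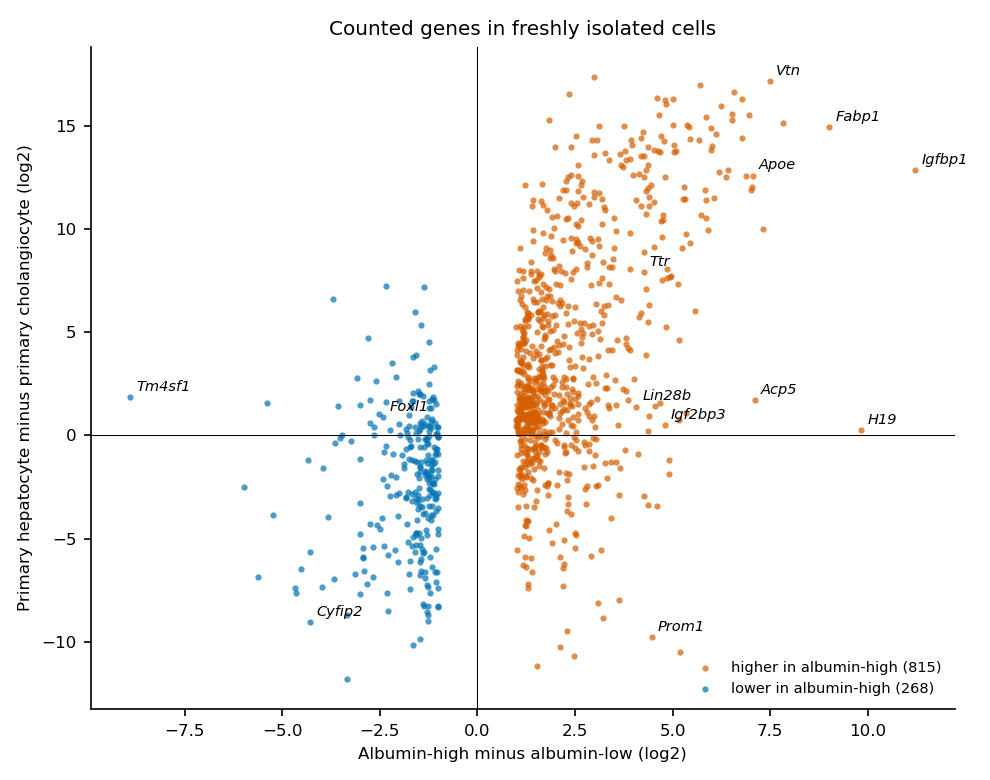
Difference between albumin-high and albumin-low arrays (x axis, log2) and between primary hepatocytes and primary cholangiocytes (y axis, log2) for the 815 genes counted higher (orange) and 268 counted lower (blue); each point is 1 gene. The x positions leave a gap around 0 because the rule asks for at least 1 log2 unit; the median y value was 2.47 for higher and -1.98 for lower genes, and H19, at 0.27, differed little between the primary cells.

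The comparison of the labelled groups was also read with the albumin class as a block, since each group held 2 arrays of each class. Between the hepatocyte condition and undifferentiated cells 1722 genes rose (6.63%) and 1716 fell (6.61%; limma, Benjamini-Hochberg adjusted p under 0.05). Without the class in the model 1471 rose and 1593 fell, and 2883 genes passed in both fits, 555 with the class alone and 181 without it alone. Genes counted between the classes have a small residual in the fit with the class by their selection, so their own tests in that fit are not given. With 8 arrays these calls were sensitive to each array, and leaving out any 1 gave 736 to 1348 genes that rose and 522 to 1100 that fell. With the slide as a fixed block, limma called 0 genes and 1 residual degree of freedom was left; 5215 had an unadjusted p under 0.05.

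Counts for the gene lists are given with the class in the model and, in parentheses, without it. Over all 25977 genes 1722 rose with the class (6.63%) and 1716 fell (6.61%), and without it 1471 rose and 1593 fell. Of 28 plasma carriers 12 rose in the hepatocyte condition (6), of 22 coagulation genes 11 (5), of 21 protease inhibitors 11 (8), and in the list for the urea cycle and amino acid breakdown 8 of 40 (4). These lists held many genes counted between the classes. Of 21 acute phase genes 17 rose (15), against 6 higher by class. Hamp rose by 8.27 and Saa2 by 11.83. On the undifferentiated arrays Hamp read -9.51 to -6.91 and Saa2 -9.59 to -8.34, so the sizes of these rises rest on the floor. Both genes were counted between the classes, so only the adjusted p without the class is given, 0.00414 for Hamp and 0.0122 for Saa2 (limma). Of 36 interferon-stimulated genes 26 rose (26), of 25 cholesterol synthesis genes 19 fell (15), and of 54 cell cycle genes 34 fell (33). In each of these 3 lists at most 1 gene was counted between the classes. Their median class differences were 0.51, 0.82 and 0.32, against 0.06 for all genes. Mki67 fell by 1.90 (SE 0.36; adjusted p = 0.0209, 0.0167 without the class) and Krt19 by 1.98 (adjusted p = 0.0236, 0.0184 without the class). Class counts and tests between conditions rest on different rules, and their difference was not tested.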

How the data were processed

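RNA from 17 samples was measured on 1-colour Agilent arrays. The deposited files hold scanner intensities per spot; per the file headers the authors' software was Feature Extraction 10.5.1.1 (9.53 in the submitters' processing notes), and the processed intensity is background-subtracted. Here log2 processed intensity was scaled by subtracting log2 of each array's 75th percentile over non-control probes. Of 39429 probes, 135 with outlier spots were left out, and 32305 well above background on at least 2 of 17 arrays were kept. The brightest probe stood for each of 25977 genes, named through RefSeq's GRCm38.p6 tables by accession (26412 probes), symbol (3854) or older symbol (735); 8428 kept the file's name. Class differences and both tests came from limma 3.58.1 in R 4.3.3 with Benjamini-Hochberg adjustment over all genes. A blocked permutation of the classes could not go below p = 0.0556, and none is given. Where no array of the dimmer class was above background, the fold is a lower bound. It was taken against, per array, the dimmest signal well above background or the probe's own, whichever was higher. Such bounds hold on this scale only, and background correction can change them. Named genes were the largest counted differences in each direction among genes above background on the brighter arrays, the largest in each list, counted or not, and a set of cell markers. Members and lists were chosen with earlier results of these data known. Alternatives covered background correction, scaling, probe filters, slide and replicate blocks, and leaving out arrays. The number of arrays limits precision. Some items are not reported here.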

Additional observations from a re-analysis of the deposited data

Results flagged for a closer look

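On 13 occasions among 93 named genes in 3 groups of 4 arrays, 1 array stood far from the other 3 of its group. The mark was a gap over range above Dixon's 95% value. Chance alone marks about 1 group in 20, and the count here was not above that rate. Some of the genes were named for a split of 2 arrays against 2, so the rate is a rough guide. Undifferentiated array 2 was low for Ddx3y (-9.62, nearest 0.43) and Evc2 (-7.42, nearest 1.27). Hepatocyte-condition array 1 was low for the same genes, at -8.99 for Ddx3y and -8.86 for Evc2, and for Evc (-9.10, nearest -0.91). Hepatocyte-condition array 4 was low for Hoxa7 (-6.13), undifferentiated array 1 high for Gckr (0.56, nearest -5.44) and undifferentiated array 4 low for Cyp2e1 (-6.41). In primary hepatocytes, Saa2 was 7.83 on array 1 (nearest 3.79), Slc27a5 was 8.42 and Serpinf2 7.52 on array 4, and Vtn was 8.04 and Cyfip2 -7.04 on array 2.

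Uty ran in opposite directions without overlap, at 0.17 high minus low in undifferentiated cells and -0.64 in the hepatocyte condition. That difference was not tested.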

How the results depend on the processing

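Across the counts for whole comparisons, 124 values under alternative settings stayed within 1.5 times the reported count and 38 did not; among differences of single genes and list medians, 3301 moved by less than the spread between arrays and 117 by more. No called direction reversed. Genes counted as higher and lower between the classes numbered 355 and 141 with normexp background correction, 417 and 164 with no group term, and 369 and 73 at a difference of at least 2 log2 units. Scaling to the array median gave 439 lower genes. Leaving out 1 array gave 903 to 1744 higher and 327 to 383 lower genes, and leaving out both arrays on which Ddx3y was dim, an alternative chosen after seeing the data, gave 1891 and 659; fewer arrays make non-overlap easier. For the hepatocyte condition against undifferentiated cells, limma called 1086 higher genes with scaling to the median, 0 higher and 0 lower with the slide as a fixed block (5215 at an unadjusted p under 0.05), and 736 to 1348 higher and 522 to 1100 lower when 1 array was left out. For primary hepatocytes against primary cholangiocytes it called 13928 higher with normexp and 10837 with no filter on dim probes, and 3335 lower with the slide as a fixed block. Of genes counted between the classes, 273 higher and 83 lower ones passed the same way in primary cells with normexp, and 223 lower ones with scaling to the median. The cause of these shifts was not tested. Same-numbered undifferentiated and hepatocyte-condition arrays paired for number 4 alone. Their deviations correlated at -0.03, -0.07 and -0.15 for numbers 1 to 3 and at 0.52 for number 4. Undifferentiated and cholangiocyte-condition arrays 1, 2 and 3 of the same number correlated at 0.38, 0.28 and 0.32. With the replicate block the hepatocyte condition gave 279 higher and 82 lower genes. Classes from several Alb probes were not run, since 1 probe reads Alb. Dim signals limit differences of genes near background.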
